A study of Mus musculus with 15 samples.

Results

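The genes described here encode the C-type natriuretic peptide route to cyclic GMP (cGMP) and were followed in mouse cumulus cells, which enclose the oocyte and feed it through gap junctions. A list of 10 genes was used, Nppc, Npr1, Npr2, Npr3, Impdh1, Impdh2, Gucy1a3, Gucy1b3, Prkg1 and Prkg2, and probes were taken where the gene symbol in the deposited table of normalized values was on that list. This gave 9 probes for 8 of the 10 genes, out of 20855 probes and 15059 gene symbols in the table. Npr3 and Prkg1 were not in that table. Their probes were found on the array by accession, so that 11 probes of 39429 gene probes are described. Gucy1a3 and Gucy1b3 are now named Gucy1a1 and Gucy1b1, and the symbols of the table are kept.

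All mice were B6CBAF1/J, and 5 arrays were hybridized for each of 3 stages, each array with a pool of cells from several mice. For NC1, juveniles aged 3 weeks gave unexpanded complexes, whose prophase I oocytes can resume meiosis but lack developmental competence. For C1, adults aged 8 weeks, with no superovulation, gave unexpanded complexes whose prophase I oocytes have that competence. For C2, superovulated females aged 8 weeks (PMSG, then hCG) gave expanded complexes collected in the oviduct, with fully competent oocytes in metaphase II. Complexes at NC1 and C1 were taken by puncture of large follicles, and oocytes were removed by pipetting at NC1 and C1 and with hyaluronidase at C2. Stage therefore cannot be told apart from age between NC1 and C1, nor, between C1 and C2, from superovulation, oviduct collection and hyaluronidase.

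C-type natriuretic peptide, made from the Nppc transcript by granulosa cells, binds the receptor NPR2 on cumulus cells, whose intracellular domain makes cGMP from GTP. cGMP passes through gap junctions into the oocyte, where it inhibits the phosphodiesterase PDE3A, keeps cyclic AMP high and so holds meiosis in prophase I. The ovulatory surge of luteinizing hormone lowers cGMP, and meiosis resumes. NPR1 is the receptor for atrial and brain natriuretic peptides, NPR3 clears natriuretic peptides, IMPDH1 and IMPDH2 catalyse the limiting step of guanine nucleotide synthesis, GUCY1A3 and GUCY1B3 form the nitric oxide receptor that also makes cGMP, and PRKG1 and PRKG2 are the kinases that cGMP activates.

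The bases just upstream of the start site are shown for the ligand, for its receptor, for both subunits of the nitric oxide receptor, which are neighbours on chromosome 3, and for Npr1, which changed in the other direction. Sequences are from RefSeq (GRCm38.p6), 250 bases each, 5′ to 3′ on the strand of the gene. Of the 10 genes, 9 had an entry. Gucy1a3 has more than 1 start site and the outer one is shown, 70.9 kb from that of Gucy1b3. Capitals mark matches on either strand to the motifs TGACNTCA (CRE-like), TGANTCA (AP-1), GGGCGG (GC box), CCAAT (a promoter box), AAGGTCA (NR5A), TATAAA (core promoter) and CACGTG (E-box), which do not overlap here.
Nppc, chr1:86670574-86670823, minus strand: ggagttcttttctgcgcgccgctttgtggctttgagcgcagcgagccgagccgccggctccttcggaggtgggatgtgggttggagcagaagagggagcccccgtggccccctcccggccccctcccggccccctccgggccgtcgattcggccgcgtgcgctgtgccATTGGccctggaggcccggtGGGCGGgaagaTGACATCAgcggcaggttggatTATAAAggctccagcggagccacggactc
Npr2, chr4:43631685-43631934, plus strand: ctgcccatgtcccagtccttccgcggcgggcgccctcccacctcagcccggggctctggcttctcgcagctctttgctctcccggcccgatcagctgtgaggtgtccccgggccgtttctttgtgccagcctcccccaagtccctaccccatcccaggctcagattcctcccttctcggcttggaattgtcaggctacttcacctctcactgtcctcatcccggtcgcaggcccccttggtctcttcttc
Gucy1a3, chr3:82145651-82145900, minus strand: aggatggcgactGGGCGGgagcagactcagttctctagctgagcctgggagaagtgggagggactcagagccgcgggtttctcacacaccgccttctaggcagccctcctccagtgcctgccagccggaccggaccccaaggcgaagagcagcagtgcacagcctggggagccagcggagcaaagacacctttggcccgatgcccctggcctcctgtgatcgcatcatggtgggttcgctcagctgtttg
Gucy1b3, chr3:82074712-82074961, minus strand: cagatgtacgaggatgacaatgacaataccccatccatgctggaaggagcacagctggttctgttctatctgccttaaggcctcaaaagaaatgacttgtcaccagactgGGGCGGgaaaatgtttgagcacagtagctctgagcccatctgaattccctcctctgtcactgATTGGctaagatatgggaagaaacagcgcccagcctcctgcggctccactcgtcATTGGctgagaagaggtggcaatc
Npr1, chr3:90465867-90466116, minus strand: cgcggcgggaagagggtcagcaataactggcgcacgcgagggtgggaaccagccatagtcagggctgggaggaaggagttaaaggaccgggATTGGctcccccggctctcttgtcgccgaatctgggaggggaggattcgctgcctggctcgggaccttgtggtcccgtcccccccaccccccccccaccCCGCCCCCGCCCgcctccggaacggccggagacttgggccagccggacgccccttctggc

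In the Nppc window a CRE-like match, TGACATCA, lay 51 to 44 bases before the start site, and a TATA match lay 29 to 24 bases before it. A TGACNTCA match was found in 7.49% of all 32851 upstream windows of the same length, a TATAAA match in 12.4%, a GGGCGG match in 32.7% and a CCAAT match in 33.8%. Among the 12 windows of the listed genes, Nppc held the only CRE-like and the only TATA match. The Npr2 window held no match to these 7 motifs. Gucy1a3 held a GC box, and Gucy1b3 held a GC box and 2 CCAAT matches. Npr1 held 2 GC boxes that touch each other in a run of C and a CCAAT match. The remaining motifs were present in 6.75% (TGANTCA), 4.08% (AAGGTCA) and 6.02% (CACGTG) of all windows. These matches describe letters only.

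Each value is a log2 intensity minus the median of valid probes on that array. Valid probes are those the scanner software called well above background in 4 or 5 of the 5 arrays at every stage, which held for 17324 probes and for 5 of the 11 probes described (Npr2, Impdh1, both probes of Impdh2 and Gucy1a3). Those 5 were tested with limma over the valid probes and the other 6 over all 39429 gene probes, in both cases at an adjusted p of 0.01 (Benjamini-Hochberg). Levels of different probes are not comparable. In these bulk samples, fewer cells of a type and less RNA per cell cannot be told apart.

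Cumulus and granulosa markers were high in the prophase I arrays, with 10 of 10 genes detected in 4 or 5 of 5 arrays at NC1 and at C1 and 9 of 10 at C2. Their summed level (the sum of linear signals in units of the array median) was 261 to 372 at NC1, 281 to 315 at C1 and 43.7 to 57.0 at C2. Kitl, the KIT ligand, was well above background in 0 of 5 arrays at C2. Expanded cumulus markers summed to 19.4 to 33.7 at C2. Between 18368 and 24496 gene probes were well above background per array, and arrays of one stage correlated at 0.976 to 0.996 over valid probes.

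A few arrays stood apart within their stage. In C1 replicate 4 the expanded cumulus markers summed to 11.2, against 0.20 to 0.58 in the other C1 arrays, and 24496 probes were well above background, the highest of the 15. In C2 replicates 4 and 5 the 12 oocyte markers summed to 0.75 and 0.84, against 13.7 to 17.4 in C2 replicates 1 to 3. The prophase I arrays also held oocyte RNA, with sums of 12.9 to 51.1 at NC1 and 13.1 to 41.0 at C1. Of the 12 oocyte markers, 11 were detected in 4 or 5 of 5 arrays at NC1 and at C1, and 4 at C2. Theca, stroma and smooth muscle markers summed to 0.90 to 1.24 at C2 and 12.0 to 17.9 at C1, and 6 of 6 valid genes were called lower at C2, against 22.2% of all valid probes. In NC1 replicates 1 and 2 theca, stroma and smooth muscle markers summed to 58.2 and 37.0, against 14.1 to 18.2 in the other NC1 arrays. Red blood cell markers summed to 78.4 and 127 in the same arrays, against 12.8 to 21.5. The part of these differences in the results was not tested. Results that rest on C1 replicate 4 or on C2 replicates 4 and 5 are also given without them.

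**Figure D1:**
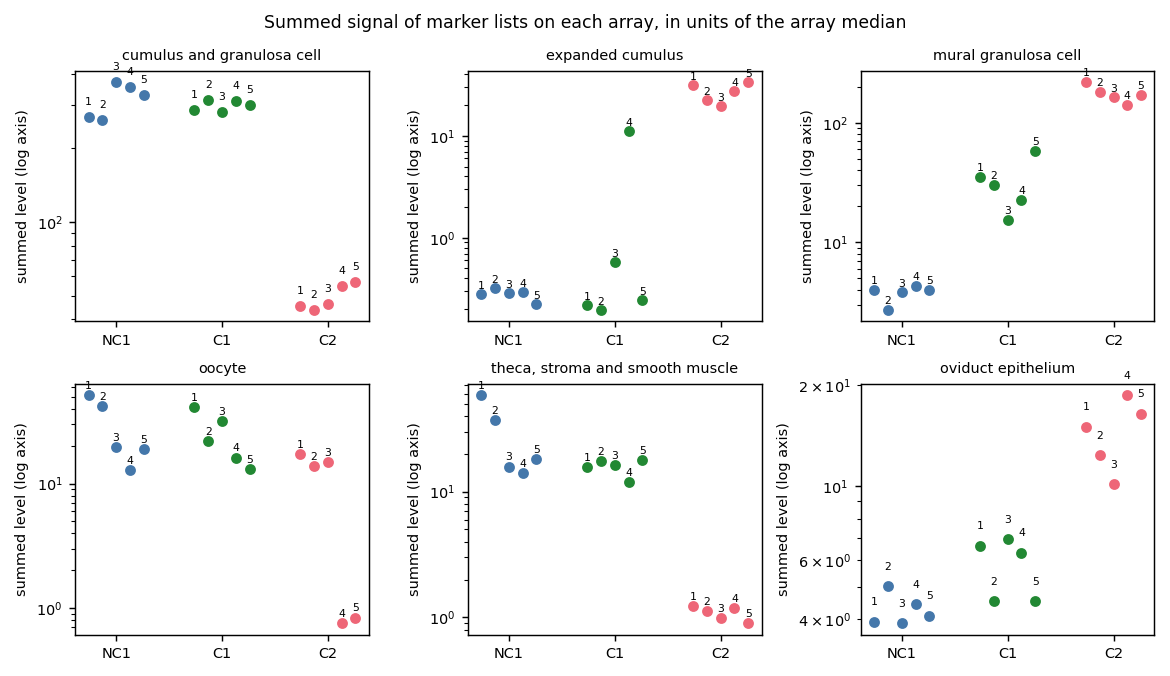
Summed signal of 6 marker lists on each of the 15 arrays, in units of the array median on a log axis, with replicate numbers beside the points. C1 replicate 4 lies at 11.2 for expanded cumulus markers, between the other C1 arrays and C2, and C2 replicates 4 and 5 lie at 0.75 and 0.84 for oocyte markers.

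Between juvenile and adult prophase I cells no member was called. Of the 5 valid probes, 0 were called by limma, where 2.52% of all valid probes were called. Without moderation of variances 0 were called, and 0 had an unadjusted p under 0.05. Over all gene probes, 0 of 11 were called against 0.989% of all probes, and 2 of 11, Npr1 and Prkg2, had an unadjusted p under 0.05. For the unadjusted p and the test without moderation, the share of all probes was not computed. NC1 and C1 did not overlap for 0 of 5 valid probes, against 5.97%, and for 1 of 11, Prkg2, against 3.6%. Between C1 and C2, 4 of the 5 valid probes were called, all of them lower at C2, against 47.6% called, 25.4% higher and 22.2% lower, among all valid probes. Over all gene probes 7 of 11 were called, 5 lower and 2 higher, against 22.9% called, 11.8% lower and 11.1% higher. The arrays of C1 and C2 did not overlap for 4 of 5 valid probes (43.9% of all valid probes) and for 8 of 11 (24.7% of all gene probes). For C2 against NC1 the counts were 4 of 5 valid probes, all lower, against 51.5% called, 26.5% higher and 24.9% lower, and 8 of 11, 2 higher and 6 lower, against 25.3%, 12.3% higher and 13% lower. NC1 and C2 did not overlap for 4 of 5 valid probes (48.9% of all) and 8 of 11 (28.6%). The F-test over the 3 stages called 4 of 5, against 51.5%. With so large a background these counts say little about the members as a list, and each gene is described in turn.

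**Figure D2:**
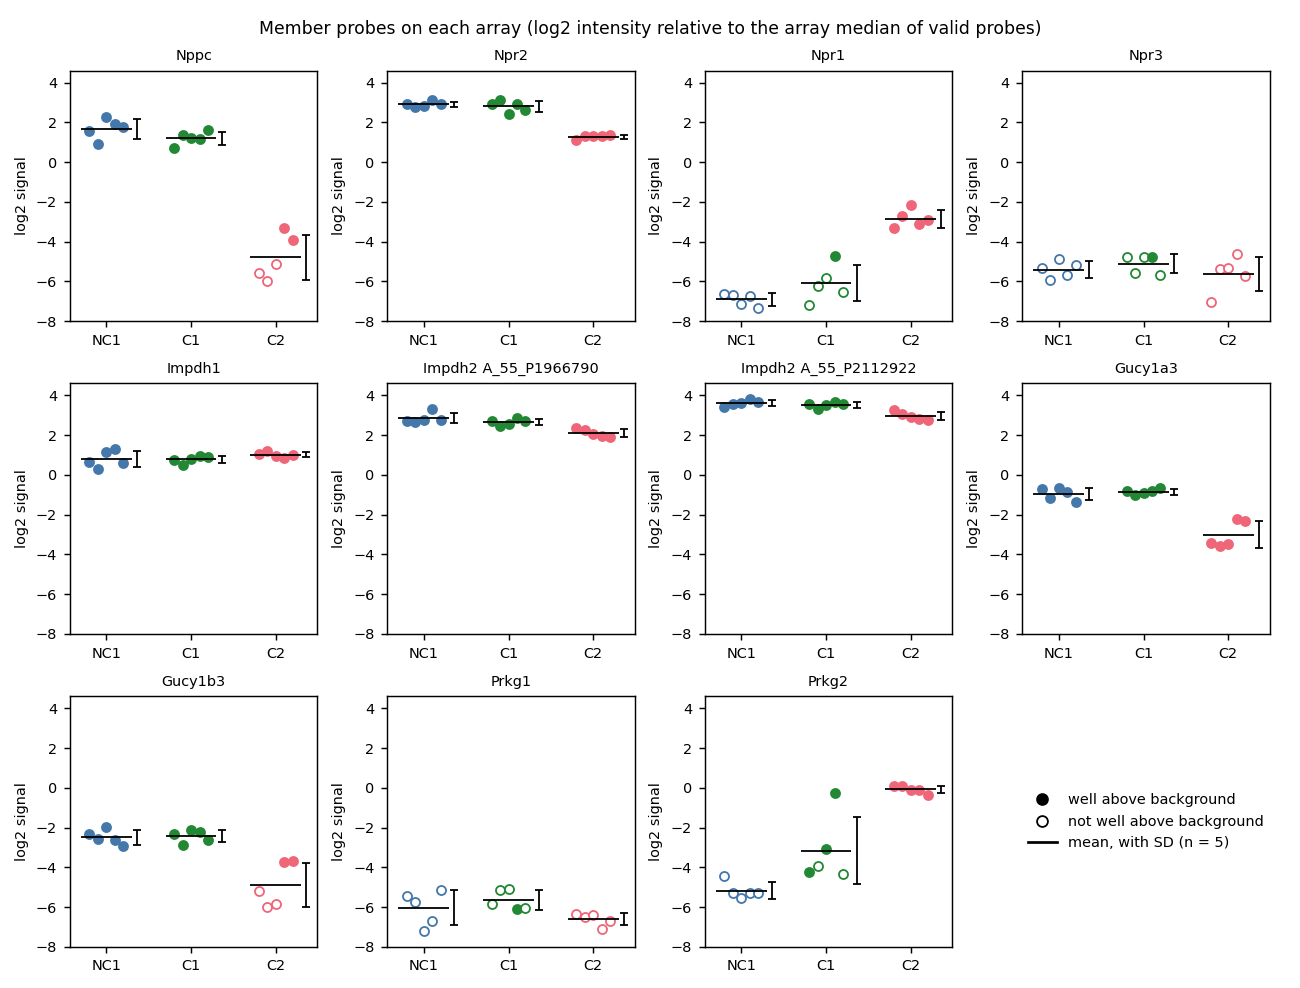
Log2 intensity of the 11 probes on each array, by stage, relative to the median of valid probes. Filled points were well above background and open points were not, and lines and bars give the mean and SD of 5 arrays. Nppc, Gucy1a3 and Gucy1b3 are lower at C2 with replicates 4 and 5 above the others, and Npr1 and Prkg2 are higher at C2.

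The ligand transcript Nppc was well above background in the cells collected around both kinds of prophase I oocyte and was near background at C2. It measured 1.56, 0.90, 2.28, 1.90 and 1.75 in NC1 replicates 1 to 5 and 0.69, 1.36, 1.21, 1.18 and 1.59 in C1 replicates 1 to 5. The C2 arrays gave -5.58, -6.01, -5.15, -3.31 and -3.91. All 10 prophase I arrays were well above background and lay above every C2 array, of which only replicates 4 and 5 were well above background. Each C2 array was set no lower than the lowest signal counted as well above background on it (its floor). Mean Nppc was then at least 47.1-fold lower at C2 than at C1, or at least 20.5-fold with normexp background correction. Bounds of this kind, here and below, compare stage means and leave out sampling error, so a 95% interval can include smaller changes. An adjusted p printed beside a bound belongs to the fitted difference, not to the bound. The fitted log2 difference had a 95% interval of -6.95 to -5.04 (SE 0.44, adjusted p = 1.12e-07 by limma over all gene probes), was -4.38 with normexp and rests on C2 values of which 3 of 5 were not well above background. Without C2 replicates 4 and 5 no C2 array was well above background, and the call stayed (adjusted p = 2.91e-08). Within the 4 slides the difference was -4.93 to -6.79. The C1 cells came from punctured follicles and the C2 cells from the oviduct, and marker lists of other cells differed between them. Summed theca, stroma and smooth muscle markers were lower at C2. Summed mural granulosa markers were higher, although of the genes on that list Akr1c18 was called higher and Ghr, Lhcgr and Ptgfr were called lower. The part of other cells in the Nppc levels was not tested. From NC1 to C1 the difference was -0.48 (95% interval -1.43 to 0.48, adjusted p = 1.00) and the stages overlapped.

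The receptor Npr2 was lower at C2 but stayed well above background in all 15 arrays. NC1 arrays gave 2.90, 2.76, 2.81, 3.11 and 2.92, and C1 arrays gave 2.92, 3.14, 2.44, 2.92 and 2.63. C2 arrays gave 1.09, 1.33, 1.30, 1.31 and 1.34, a narrow range below all prophase I arrays. Npr2 fell by 1.54 from C1 to C2 (SE 0.12, 95% interval -1.80 to -1.27, adjusted p = 2.43e-08), which is a level 2.90-fold lower. Within slides the difference was -1.69 to -1.33. NC1 and C1 overlapped, with a difference of -0.09 (95% interval -0.36 to 0.17, adjusted p = 0.794). Among valid probes of other genes the highest Pearson correlations with Npr2 over the 15 arrays were 0.995 for Ghr, the growth hormone receptor, 0.990 for Fbn2, a fibrillin of the extracellular matrix, and 0.987 for Me3, a mitochondrial malic enzyme. Ghr is also on the mural granulosa marker list. These arrays share the large difference between prophase I and C2, and the values are a description. Nppc was not valid and was not compared in this way.

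Npr1 moved in the other direction. It was well above background in 0 NC1 arrays, in 1 C1 array and in all 5 C2 arrays. C2 arrays gave -3.30, -2.72, -2.14, -3.14 and -2.92, and C1 arrays gave -7.19, -6.21, -5.85, -4.72 and -6.51, where replicate 4 was the array above background. NC1 arrays lay between -7.33 and -6.62. No C2 array overlapped the prophase I arrays. Against NC1 the C2 level was at least 3.68-fold higher (adjusted p = 5.94e-07, means -2.84 and -6.91), where NC1 was set at the floor of each array. With normexp correction this bound was 2.43-fold. Against C1, with 1 of 5 arrays detected and each array set no lower than its floor, Npr1 was at least 3.01-fold higher at C2 (adjusted p = 7.32e-06), or at least 2.09-fold with normexp correction. Without C1 replicate 4 no C1 array was well above background. Oviduct epithelium markers summed to 4.54 to 6.94 at C1 and 10.1 to 18.6 at C2 (1 of 5 valid genes called higher, 2 lower). Mural granulosa markers summed to 15.3 to 58.3 and 142 to 220 (1 of 3 valid genes, Akr1c18, called higher, 1, Ghr, lower). Akr1c18 rose by 5.16. Lhcgr and Ptgfr, on the same list but not valid, fell by 2.83 and 1.67 (adjusted p = 4.70e-05 and 0.00665, limma over all gene probes). The part of both lists in the rise of Npr1, and in that of Prkg2 described later, was not tested.

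Npr3 was at background. It was well above background in 0 arrays of NC1, 1 of C1 and 0 of C2, and its values ran from -7.02 to -4.65. The detected array was again C1 replicate 4. The C2 minus C1 difference was -0.50 (95% interval -1.31 to 0.30, adjusted p = 0.435).

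Of the enzymes of guanine nucleotide synthesis, Impdh1 did not pass the test in any comparison, and Impdh2 fell at C2 by less than 1 on the log2 scale. Impdh1 ran from 0.32 to 1.29 at NC1, 0.50 to 0.95 at C1 and 0.86 to 1.19 at C2, ranges that overlapped, and the C2 minus C1 difference was 0.22 (95% interval -0.12 to 0.56, adjusted p = 0.250). For Impdh2, the probe A_55_P2112922 gave 3.43, 3.58, 3.63, 3.84 and 3.69 at NC1 and 3.59, 3.29, 3.54, 3.68 and 3.57 at C1. At C2 it gave 3.24, 3.07, 2.92, 2.83 and 2.77, all below the C1 arrays. It fell by 0.57 from C1 to C2 (SE 0.11, adjusted p = 0.000426), and the other probe, which ran from 2.44 to 2.85 at C1 and 1.91 to 2.38 at C2, fell by 0.54 (SE 0.13, adjusted p = 0.0022). In the fit over all gene probes the adjusted p of that other probe was 0.0105. The calls also depend on scaling. With the authors' table, in which the median difference of all valid probes was 0.33, the differences were -0.26 (adjusted p = 0.304) and -0.23 (adjusted p = 0.382), and with spike-in scaling the adjusted p was 0.0988 and 0.121. Without C2 replicates 4 and 5 the differences were -0.45 (adjusted p = 0.00754) and -0.42 (adjusted p = 0.0292). Within slides they were -0.73 to -0.29 and -0.74 to -0.18.

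Both subunits of the nitric oxide receptor fell from C1 to C2. Gucy1a3 gave -0.72, -1.17, -0.65, -0.86 and -1.39 at NC1 and -0.82, -1.03, -0.93, -0.83 and -0.67 at C1. At C2 it gave -3.44, -3.59, -3.49, -2.21 and -2.29. No C2 array reached the prophase I arrays, and replicates 4 and 5 lay above the other C2 arrays. Gucy1a3 fell by 2.15 from C1 to C2 (SE 0.25, 95% interval -2.68 to -1.62, adjusted p = 1.70e-06), which was -2.65 without C2 replicates 4 and 5. Gucy1b3 gave -2.33, -2.59, -1.997, -2.65 and -2.94 at NC1 and -2.35, -2.86, -2.14, -2.25 and -2.65 at C1. Its C2 values were -5.17, -6.003, -5.86, -3.74 and -3.69, with only replicates 4 and 5 well above background. With each C2 array set no lower than its floor, Gucy1b3 was at least 3.76-fold lower at C2 than at C1, or at least 2.15-fold with normexp correction. The fitted log2 difference was -2.45 (SE 0.42, 95% interval -3.34 to -1.55, adjusted p = 0.000322), or -1.15 with normexp correction, and without C2 replicates 4 and 5 no C2 array was well above background. Neither passed the test from NC1 to C1 (differences of 0.10 and 0.05, adjusted p = 0.901 and 1.00). In Nppc, Gucy1a3 and Gucy1b3, C2 replicates 4 and 5 were the highest C2 arrays, and the oocyte markers were lowest in the same arrays. Summed cumulus and granulosa, endothelium and oviduct epithelium markers were highest at C2 in those arrays too. From C1 to C2 the summed theca, stroma and smooth muscle markers fell, from 12.0 to 17.9 down to 0.90 to 1.24. The part of oocyte RNA or of any of these cell types in the levels of the 3 genes was not tested.

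Prkg2, the membrane-bound cGMP-dependent kinase, was higher at C2 than at NC1. At NC1 it gave -4.46, -5.31, -5.54, -5.32 and -5.30, none well above background. At C1 it gave -4.23, -3.93, -3.07, -0.29 and -4.36, of which replicates 1, 3 and 4 were well above background. At C2 it gave 0.07, 0.07, -0.10, -0.09 and -0.36, all well above background. C1 replicate 4, at -0.29, lay within the C2 range, and the other C1 arrays lay below it. The same array had the high sum of expanded cumulus markers, 11.2, whose part was not tested. Against NC1 the C2 level was at least 24.8-fold higher (adjusted p = 7.75e-06, means -0.08 and -5.18), or at least 8.73-fold with normexp correction. Prkg2 rose by 3.09 from C1 to C2 (SE 0.60, adjusted p = 0.000906) and by 3.81 without C1 replicate 4 (adjusted p = 9.55e-08). On slide 3, which held C1 replicate 4, the difference was 0.28, and on the other slides it was 3.14 to 4.26. The C1 minus NC1 difference was 2.01 (adjusted p = 0.147), with no overlap between the stages, and 1.29 without C1 replicate 4 (adjusted p = 0.02).

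Prkg1, the other kinase, was well above background in 1 of 15 arrays, C1 replicate 4, and its values ran from -7.18 to -5.08. The C2 minus C1 difference was -0.97 (95% interval -1.75 to -0.19, adjusted p = 0.0593), where the ranges of C1 and C2 did not overlap but only 1 of the 10 values was well above background.

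**Figure D3:**
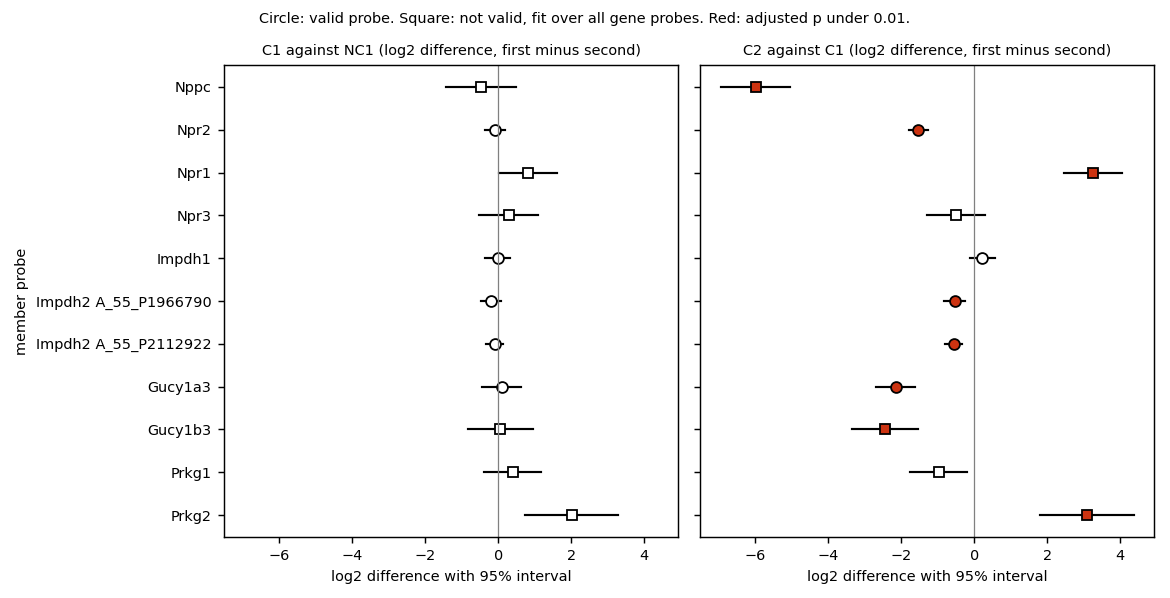
Log2 differences of the 11 probes with 95% intervals, C1 minus NC1 on the left and C2 minus C1 on the right. Circles are valid probes, squares were fitted over all gene probes and red marks an adjusted p under 0.01. No interval on the left belongs to a called probe, and on the right the fitted values run from -5.995 for Nppc to 3.25 for Npr1, both with a side near background.

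**Figure D4:**
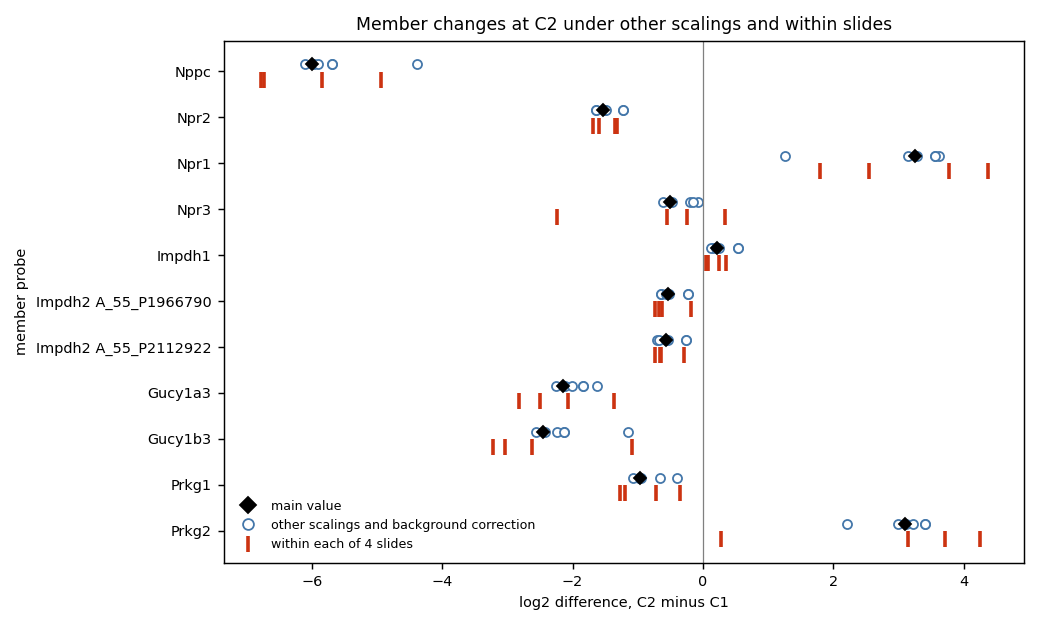
C2 minus C1 difference of each probe on the log2 scale, for the main values (diamonds), 6 other scalings or background corrections (circles, fewer for probes outside the authors' table) and within each of 4 slides (ticks). The called changes keep their sign throughout, with Prkg2 at 0.28 on slide 3 and Npr1 at 1.26 with normexp correction.

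Other genes of the route were taken from a list of 59 genes, all with a probe, of which 32 were valid, each by the probe with the highest mean. Of the 32, 2 were called from NC1 to C1, 1 higher (against 1.75% of all valid probes) and 1 lower (against 0.768%). From C1 to C2, 22 were called, 7 higher and 15 lower, against 47.6% of all valid probes. The median difference was -0.50, against 0.02 over all valid probes, and nothing particular to the list is read from it.

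Among ligand processing enzymes, Furin, a protease that cleaves pro-C-type natriuretic peptide, rose by 1.104 from C1 to C2 (SE 0.16, adjusted p = 1.77e-05), and did not pass with spike-in scaling (adjusted p = 0.0137). Nppa and Nppb, the transcripts of the atrial and brain peptides, were well above background in 1 and 0 of 15 arrays. None of the 7 other guanylyl cyclases was present in any stage, that is detected in 4 or 5 of its arrays. Nos2, the inducible nitric oxide synthase, fell by 0.97 from NC1 to C1 (SE 0.16, adjusted p = 0.00141) and fell by 1.64 from C1 to C2 (SE 0.16, adjusted p = 2.91e-07). The call from NC1 to C1 was lost with the median over all gene probes, the authors' table and spike-in scaling (adjusted p = 0.0104, 0.0104 and 0.425). Nos3, another nitric oxide synthase, was not valid, with 5 of 5 arrays detected at NC1 and at C1 and 2 of 5 at C2. With each C2 array set no lower than its floor, Nos3 was at least 8.36-fold lower at C2 than at C1, or 3.98-fold with normexp correction. The fitted C2 minus C1 difference was -3.64 (adjusted p = 4.59e-07 by limma over all gene probes). From NC1 to C1 Nos3 was 1.32 higher and did not pass (adjusted p = 0.0457).

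Of 14 valid genes of purine and GMP synthesis, 6 fell and 3 rose from C1 to C2, where 22.2% of all valid probes were called lower and 25.4% higher. With spike-in scaling none of the 3 that rose, Atic, Hprt and Adssl1, passed (adjusted p = 0.592, 0.243 and 0.401). Of the 6 that fell, Adsl and Guk1 did not pass with spike-in scaling either (adjusted p = 0.0955 and 0.0255). Both also failed with the median over all gene probes (0.347 and 0.0597) and with the authors' table (0.346 and 0.0595). The falls were led by Prps2, which fell by 2.00 (SE 0.15, adjusted p = 9.36e-09), and Prps1, which fell by 1.39 (SE 0.10), both making the ribose phosphate for purines. Ppat, the first committed enzyme of purine synthesis, fell by 1.04 and Gmpr, which converts GMP to IMP, fell by 1.01.

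Of 10 phosphodiesterases that can hydrolyse cGMP, 7 were present in a stage. Pde5a, which is specific for cGMP, fell by 1.56 from C1 to C2 (SE 0.24, adjusted p = 3.67e-05), with means of -0.69, -0.33 and -1.88 at NC1, C1 and C2. Pde2a fell by 1.97 (SE 0.33, adjusted p = 7.48e-05). Pde1b rose by 0.70 (SE 0.19, adjusted p = 0.0038), a call lost with spike-in scaling (adjusted p = 0.174), over all gene probes (0.0151) and without C1 replicate 2 (0.012) or C2 replicate 2 (0.013). Pde1a gave a difference of 0.21 (adjusted p = 0.358) and Pde10a one of 0.83 (adjusted p = 0.0159), neither of which passed. Pde9a and Pde3b were not valid. Pde9a, which is specific for cGMP, was detected in 1 of 5 C2 arrays and Pde3b in 3 of 5. With each C2 array set no lower than its floor, they were at least 3.68-fold and 2.62-fold lower at C2 than at C1. With normexp correction these bounds were 2.21-fold and 1.89-fold. The fitted differences were -2.33 and -1.55 (adjusted p = 6.97e-07 and 0.00125 by limma over all gene probes). Pde3a, the enzyme of the oocyte, was well above background in 1 of 15 arrays by the brighter of its 2 probes. Oocyte markers were detected in the prophase I arrays, and how well this probe detects Pde3a was not tested.

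Among kinase substrates and related genes, Lrmp, a relative of the kinase substrate IRAG1, rose at both steps, by 1.28 (SE 0.17, adjusted p = 0.000187) and by 4.59 (SE 0.17, adjusted p = 4.30e-12). Vasp, an actin regulator and substrate of the cGMP-dependent kinases, rose by 1.29 from C1 to C2 (SE 0.14, adjusted p = 6.00e-07). Gap junction genes of the route to the oocyte were lower at C2, where Gja1 fell by 2.09 (SE 0.24, adjusted p = 1.58e-06) and Gja4, which couples cumulus cells and oocyte, fell by 2.89 (SE 0.25, adjusted p = 5.77e-08). The part of oocyte RNA in the Gja4 levels was not tested. All 4 valid genes of the upstream group were called lower at C2, against 22.2% of all valid probes, but Esr1 was not called under 4 other scalings (adjusted p from 0.0104 to 0.0598). Cyp19a1, the aromatase of estradiol synthesis, fell by 4.55 (SE 0.43, adjusted p = 1.53e-07). Fshr, the receptor of follicle-stimulating hormone, fell by 3.10 (SE 0.21, adjusted p = 3.53e-09) and Esr2, an estrogen receptor, fell by 2.47 (SE 0.18, adjusted p = 7.50e-09).

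Kitl, Akr1c18, Ptgfr, Nppa, Nppb, Nos3, Pde3a, Atic, Hprt, Adssl1, Adsl, Guk1 and Esr1 were named outside the rule stated for list genes, after their values were seen. So were 2 list genes that were not valid and were called from NC1 to C1. Lhcgr, the luteinizing hormone receptor, was well above background in 0 NC1 and 5 C1 arrays and was at least 12.1-fold higher at C1 (adjusted p = 4.68e-06). Gjc1, a gap junction gene, fell by 2.00 (SE 0.33, adjusted p = 0.00435). Mural granulosa markers, a list of 5 genes that includes Lhcgr, summed to 2.70 to 4.30 at NC1 and 15.3 to 58.3 at C1. Of the 3 valid genes on this list 2 were called higher, and Ghr was not called (-0.22, adjusted p = 0.605 by limma). Red blood cell markers summed to 12.8 to 127 at NC1 and 2.17 to 8.79 at C1 (2 of 3 valid genes, Hba-a1 and Hbb-b2, called lower). The part of either list in these differences was not tested.

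**Figure D5:**
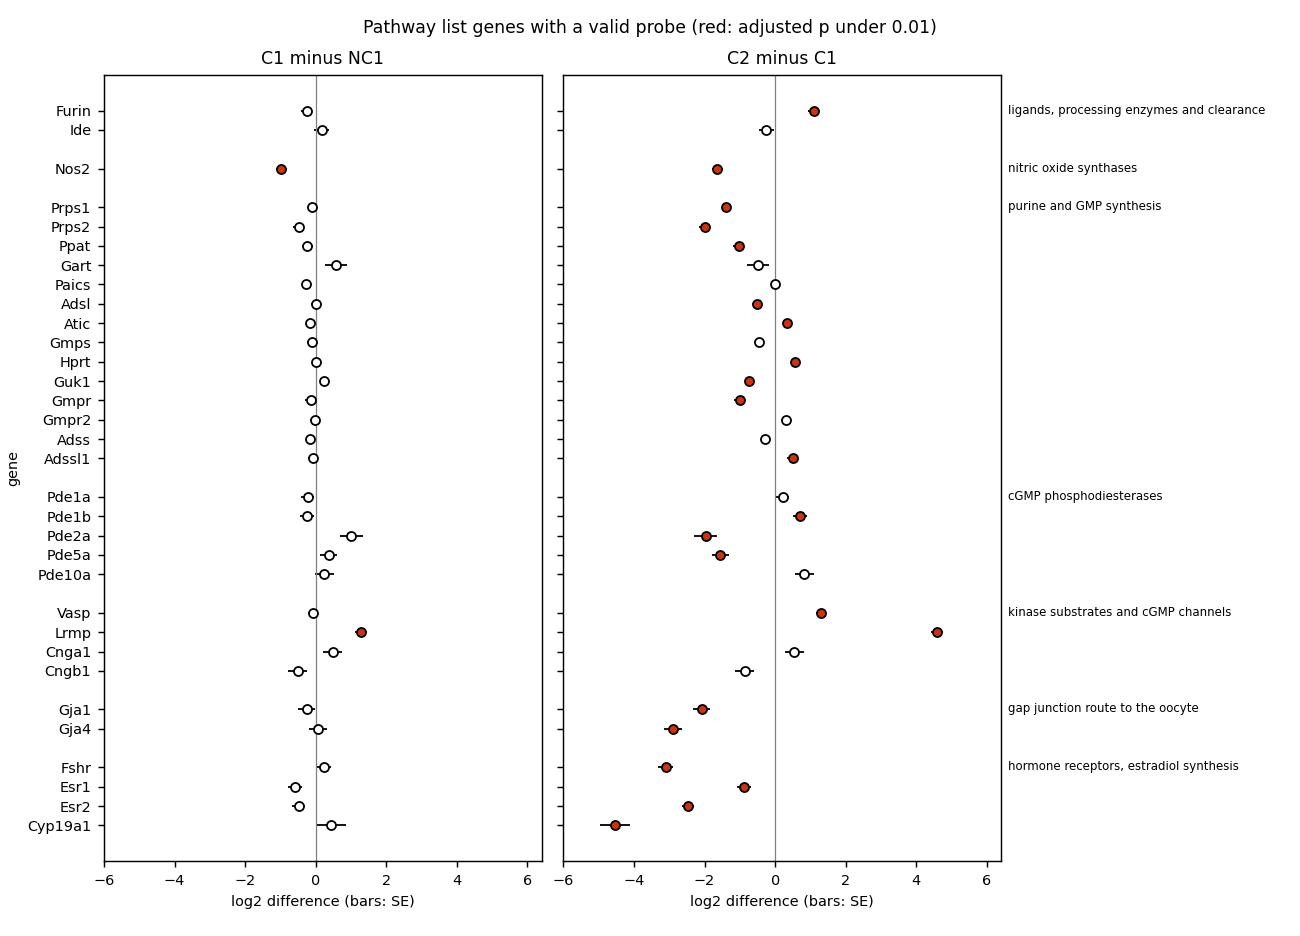
Log2 differences of the 32 pathway list genes with a valid probe, by group, with SE bars. The left panel shows C1 minus NC1, where red points (adjusted p under 0.01) are Nos2 and Lrmp, and the right panel shows C2 minus C1, from -4.55 for Cyp19a1 to 4.59 for Lrmp.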

How the data were processed

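Cumulus cell RNA was labelled with 1 dye and hybridized to Agilent arrays, 5 per stage. The authors deposited scanner output (Feature Extraction 10.7.1.1 per the file headers, 10.5.1.1 per the labels), whose processed intensity is background-subtracted and not scaled between arrays, and a table of log2 values, in which each array differs from the log2 intensity by a constant, within rounding. The number of arrays limits precision.

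Here spots of a probe were averaged without flagged outliers, log2 was taken and each array's median over valid probes subtracted. Stages were compared with limma 3.58.1 (R 4.3.3), 1 model over 15 arrays, moderated variances, two-sided, Benjamini-Hochberg at 0.01. Probes were named by accession through RefSeq (GRCm38.p6, 26055 named, 2770 by the authors' table only, 10604 unnamed). The fit was tested on simulated data. Where a probe was not well above background on some arrays of a stage, a bound takes the higher of its own value and the lowest well-above-background signal on each array. Bounds are differences of stage means and carry no sampling error. Normexp (offset 50) used spot medians in place of spot means. Replicates are separate pools of cells, and p-values measure the spread between them. Same-numbered arrays of different stages deviated together in 4 of 15 pairs (correlation over 0.1), against 22 of 60 differently numbered pairs. The main fit treats samples as unpaired, though these correlations cannot exclude a pairing. The 28 alternatives were scaling, filter, variance model, replicate and slide blocks and leaving out arrays. The removal of C2 replicates 4 and 5 was added after seeing the data. Named were all members, list genes called with a log2 change of at least 1, detected phosphodiesterases and the 3 genes most like Npr2. The members and lists were chosen with earlier results of these data known.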

Additional observations from a re-analysis of the deposited data

Results flagged for a closer look

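In groups of 5 arrays, 10 of 93 groups of values held an array that lay far from the other 4 by Dixon's test, where chance gives about 1 in 20. Among the members, Npr2 was 1.09 in C2 replicate 1, with the others at 1.30 to 1.34. The Impdh2 probe A_55_P1966790 was 3.30 in NC1 replicate 4, with the others at 2.68 to 2.78. Prkg2 was -4.46 in NC1 replicate 1, with the others at -5.54 to -5.30 and none well above background.

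Among the pathway list genes, C2 replicate 1 was the highest C2 array for 3 phosphodiesterases, Pde2a at -2.23 (others -4.03 to -3.73), Pde3b at -3.28 (others -4.94 to -4.56) and Pde5a at -1.22 (others -2.18 to -1.96). In C1 arrays, Prps1 was 2.08 in replicate 3 (others 1.59 to 1.71), Pde1b was -1.86 in replicate 2 (others -1.57 to -1.49) and Cyp19a1 was 4.58 in replicate 1 (others 2.56 to 3.11). Pde10a was -3.43 in NC1 replicate 1 (others -4.26 to -4.03).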

How the results depend on the processing

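The numbers of called member probes (4 over the 3 stages, 4 for C2 against C1 and 4 for C2 against NC1) became 2, 2 and 2 with the median over all gene probes, with spike-in scaling and with the authors' table. They became 8, 7 and 8 with no filter and 8, 8 and 8 with probes present in at least 1 stage, since more probes were then tested. The 2 pathway genes called from NC1 to C1 became 1 under those 3 scalings, which lost Nos2, and 4 with either wider filter. On the log2 scale the lower bounds for C2 over NC1 moved with normexp correction from 1.88 to 1.28 for Npr1 and from 4.63 to 3.13 for Prkg2. The median C2 minus C1 difference of valid probes was 0.02 in the main setting, 0.33 with the median over all gene probes or the authors' table and -0.09 with spike-ins.

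Differences from NC1 to C1 that were near 0 and not called changed sign. With spike-ins Npr2 was 0.067, Impdh1 0.15 and the Impdh2 probe A_55_P2112922 0.058. Impdh1 was 0.0080 with quantile normalization and 0.032 with slide as a block. Gucy1a3 was -0.0074 with the median over all gene probes and -0.0075 with the authors' table. Gucy1b3 was -0.052 under both, -0.017 with normexp and -0.031 with slide as a block. Without 1 array at a time the C1 minus NC1 range was -0.17 to 0.0018 for Npr2, -0.13 to 0.11 for Impdh1, -0.0089 to 0.18 for Gucy1a3 and -0.055 to 0.18 for Gucy1b3, and the C2 minus NC1 range was -0.46 to 0.13 for Npr3. The cause was not tested. Leaving out 1 array left 4, 0, 4 and 4 member calls each time, with 2 to 3, 19 to 23 and 22 to 25 pathway calls for C1 against NC1, C2 against C1 and C2 against NC1.

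Replicate numbers were used only to name the arrays, apart from the fit with a replicate block. Same-numbered arrays of different stages had deviations that correlated at -0.24 to 0.35. With the replicate block the member calls were 4, 0, 4 and 4 and the pathway calls 2, 20 and 24. The values of Nppc, Gucy1b3, Npr1, Npr3, Prkg1, Prkg2, Nos3, Pde3b, Pde9a, Gjc1 and Lhcgr are limited by signal near background in at least 1 stage.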
